A study of Mus musculus with 4 samples.

Results

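Replication-dependent histone genes were followed in single CD4 T cells, and all 67 of them were taken, of 32285 gene features in the expression matrices, because their symbols start with Hist1h, Hist2h, Hist3h or Hist4h. The members comprise 6 H1, 18 H2A, 18 H2B, 12 H3 and 13 H4 genes. The cells came from B6.H2g7 donor mice (strain label B6.NOD-(D17Mit21-D17Mit10)/LtJ, 6 to 8 weeks old), of which 5000000 column-purified splenic CD4 T cells were given to 2 separate NOD.Rag1null hosts, which have no T or B cells of their own. After 14 days, live CD4+ TCRβ+ cells were sorted from the spleen of each host, and 1 expression library and 1 receptor library were made per host with the 10x 5′ v2 kit. All cells thus shared donor strain, host strain and day, the groups below are classes of cells within each host, and n is 2 mice throughout. Whether donor cells were pooled before transfer is not stated in the labels. The classes were TRBV26 (2084 and 1960 cells in mouse 1 and mouse 2), TRBV23 (959 and 725) and all other V genes (2950 and 3647); clonotypes of 1 cell (2395 and 2585), 2 to 9 cells (2066 and 1917) and 10 or more cells (1532 and 1830); cells with a Foxp3 UMI (919 and 1146) and with none (5074 and 5186); and cells with an Mki67 UMI (971 and 936) and with none (5022 and 5396). In every list of values below, mouse 1 is given first and mouse 2 second.

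DNA is packed by wrapping it around core histones H2A, H2B, H3 and H4, with the linker histone H1 at the entry and exit of the wrap. Cells that copy their genome must also make new histones, and the genes studied here supply them: they are clustered, lack introns as a rule, and are transcribed mainly in S phase. Unlike other messenger RNAs of animals, theirs end in a conserved stem-loop in place of a poly(A) tail; Slbp, the stem-loop binding protein, governs their processing, translation and decay. The 10x kit primes reverse transcription on poly(A), so molecules that end at the stem-loop are not the usual template, and the ends of the counted molecules were not measured here.

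The stem-loop is shown because it defines this class of message. The sequence searched was a fixed consensus of 16 bases, a stem of 6, a loop of 4 and a second stem, with few positions free. It was found in the annotated transcripts of 44 of the 67 members. Pairing of the stems was not checked, and a stem-loop of another form counts as no match. The 3 commonest forms were carried by 26, 7 and 6 members, and a form of Hist1h4i and Hist2h4 is shown beside them, with the stem in capitals and the loop in lower case.
Hist1h1e: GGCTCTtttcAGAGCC
Hist1h4c: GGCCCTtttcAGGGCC
Hist1h2bk: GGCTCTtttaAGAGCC
Hist1h4i: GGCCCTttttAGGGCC
In 22 members the annotated transcript (GENCODE M21) runs 100 or more bases past the stem-loop, in 22 it ends within 100 bases of it, and in 23 no match to this consensus was found.

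Promoters are shown for 3 members that moved together with Mki67 below and differ in the elements they hold. The windows are 250 bases before to 50 after the start (RefSeq, GRCm38.p6, on the minus strand, printed 5′ to 3′). Capitals mark 4 motifs on either strand. They are the CCAAT box, spelled as its name, the TATA box, searched as TATAAA, an element known from H1 promoters, searched as AAACACA, and the octamer known from H2B promoters, searched as ATTTGCAT. CCAAT boxes, a TATAAA and an AAACACA element stand in the promoter of Hist1h1b, a linker histone gene, at chr13:21780576-21780875.
Hist1h1b: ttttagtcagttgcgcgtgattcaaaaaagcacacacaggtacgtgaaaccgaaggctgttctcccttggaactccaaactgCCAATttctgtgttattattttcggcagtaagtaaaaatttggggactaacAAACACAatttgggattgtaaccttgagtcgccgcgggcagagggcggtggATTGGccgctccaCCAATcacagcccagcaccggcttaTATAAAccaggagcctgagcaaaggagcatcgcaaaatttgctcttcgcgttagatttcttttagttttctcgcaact
The promoter window of Hist1h2ae, an H2A gene, at chr13:23571171-23571470 holds CCAAT boxes, a TATAAA match and the octamer. The TATAAA match and the octamer lie on the opposite strand, and which gene they serve was not tested.
Hist1h2ae: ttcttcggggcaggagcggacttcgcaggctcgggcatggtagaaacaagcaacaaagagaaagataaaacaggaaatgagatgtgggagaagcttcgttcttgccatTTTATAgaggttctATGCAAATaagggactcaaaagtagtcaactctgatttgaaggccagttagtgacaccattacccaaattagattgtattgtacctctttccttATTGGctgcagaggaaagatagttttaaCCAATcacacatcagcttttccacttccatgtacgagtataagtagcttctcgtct
The promoter of Hist1h4i, an H4 gene, at chr13:22041313-22041612 holds TATAAA alone of the 4.
Hist1h4i: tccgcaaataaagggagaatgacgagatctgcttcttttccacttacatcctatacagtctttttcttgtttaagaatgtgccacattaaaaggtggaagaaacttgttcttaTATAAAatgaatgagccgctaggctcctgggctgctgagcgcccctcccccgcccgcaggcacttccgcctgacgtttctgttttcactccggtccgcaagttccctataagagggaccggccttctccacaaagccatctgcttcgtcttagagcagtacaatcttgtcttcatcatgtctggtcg
Of the members, 61 matched a RefSeq promoter. CCAAT was found in 52 of the 61 (85.2%), against 37.9% of 27025 promoters of the same length, and in all 6 H1, 17 H2A, 16 H2B and 10 H3 promoters, but in 3 of 12 H4 promoters. TATAAA was found in 35 of the 61, against 14.2% of all promoters. AAACACA was found in 5 of 6 H1 promoters, 2 H2A and 2 H2B promoters and no H3 or H4 promoter, against 7.14% of all promoters. ATTTGCAT was found in 7 H2A and 6 H2B promoters and in none of the other families, against 1.75%. A match on either strand was counted, and windows shared with a neighbouring gene were not set apart. These matches describe letters in a window and no more.

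After filters, 5993 and 6332 cells were kept, with 38725969 and 44796902 UMIs and medians of 5596 and 6219.5 UMIs per cell. Cd3e, a subunit of the T cell receptor complex, was found in 98.5% and 98.8% of them and Cd4 in 84.1% and 86.9%. Of the CD8 T cell markers, Cd8a had no UMI, whereas Cd8b1 was found in 4.94% and 4.91%. Of the myeloid markers, C1qa, a macrophage marker, was found in 0.784% and 1.26%, and Cd68 in 9.71% and 7.53%. The libraries shared 166 barcodes, 58 of them among kept cells of both.

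Of the 67 members, 64 had at least 1 UMI; Hist1h4m, Hist1h2ba and Hist1h2aa had none. Together the members took 77241 and 67471 UMIs, or 1995 and 1506 CPM (UMIs of the genes per 1000000 UMIs of the cells they were summed over). The H1 family held 38.7% and 39.4% of histone UMIs, H2A 30.5% and 29.8%, H3 12.3% and 11.3%, H2B 10.8% and 10.7%, and H4 7.60% and 8.74%. The order of the families was thus the same in both mice, with the H1 and H2A genes ahead.

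The members lie on chromosomes 13 (54), 3 (10), 11 (2) and 6 (1), and those on chromosome 13 span chr13:21715763-23934851 (GRCm38). Hist1h1e, a linker histone gene at chr13:23620629-23622558 on the minus strand, was the most counted at 286 and 221 CPM. It was followed by Hist1h2ae at chr13:23570517-23571220 with 279 and 205 CPM and by Hist1h1b at chr13:21779883-21780625 with 226 and 151 CPM. Hist1h1c, Hist1h1d and Hist1h2ab reached 114 and 102, 112 and 95.4, and 96.3 and 65.9 CPM. Per kilobase of annotated transcript, Hist1h2ae came first at 396 and 291 CPM per kb. Hist1h1b stood at 304 and 203, Hist1h2ab at 204 and 139 and Hist1h1e at 148 and 115 CPM per kb. The order of genes thus depended on the scale; a UMI counts a molecule once whatever its length, and division by length lowers the genes with long annotated transcripts. Every one of these levels was lower in mouse 2. Hist1h1e shares its strand and part of its span with Hist1h2be, so reads in the shared stretch cannot be assigned to one of them from position alone.

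Many members are near-identical in sequence. In 26 of the 67, under 50% of the 90-base words of the transcript were absent from all other members, and in 9 all were. The values of Hist1h2ao (7.16% of words its own), Hist1h2ap (7.63%), Hist1h2an (16.1%) and Hist1h2bk (28.4%) are therefore uncertain as single-gene values; how reads matching several copies were counted is not given in the sources used here.

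Mki67, a nuclear protein of cycling cells, served to split the cells by whether a UMI of it was found. The Mki67-positive class also holds cells with few cycle transcripts. Of 4482 and 5102 cells with under 20 replication-list and under 3 mitosis-list UMIs per 10000 (lists described below), 8.10% and 9.33% were Mki67-positive. Histone transcripts were several-fold more abundant in Mki67-positive cells. Their summed level was 5695 and 4915 CPM in Mki67-positive cells, against 635 and 503 CPM in Mki67-zero cells, 8.97- and 9.76-fold. The gap was larger than the difference between the mice in either class. By family, the fold was 15.8 and 19.4 for H2A, 9.21 and 9.61 for H1, 6.63 and 7.52 for H3, 6.19 and 6.75 for H2B and 3.99 and 4.06 for H4. H4 was thus the family with the smallest and H2A that with the largest fold in both mice.

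**Figure D1:**
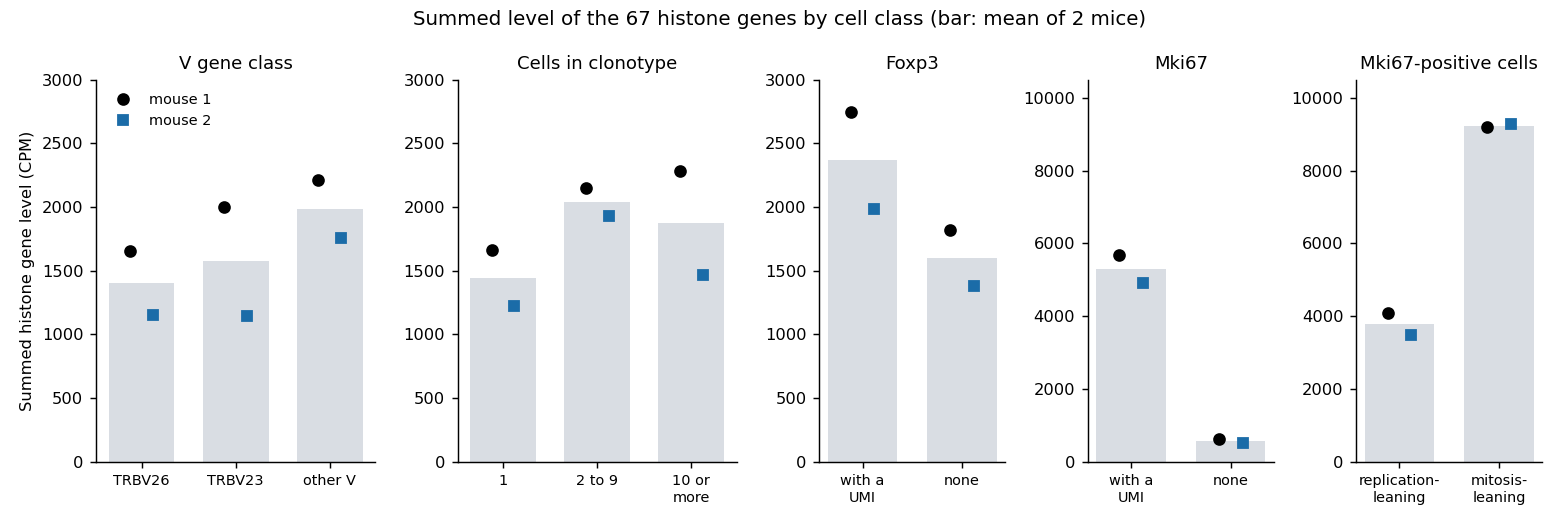
Summed histone level (CPM, linear axis from 0) in each class of cells, with bars for the mean of 2 mice, circles for mouse 1 and squares for mouse 2. The Mki67 panel has the largest ratio between classes (5695 and 4915 against 635 and 503 CPM), the V gene, clonotype size and Foxp3 panels have smaller ones, and among Mki67-positive cells the mitosis-leaning class lies highest at 9187 and 9293 CPM.

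Hist1h2ae had 954 and 835 CPM in Mki67-positive cells, against 30.9 and 19.9 CPM in Mki67-zero cells. It had the highest CPM of the members in Mki67-positive cells, whereas in Mki67-zero cells it stood below the linker histone genes Hist1h1e, Hist1h1c and Hist1h1b in both mice. Hist1h1e had 749 and 638 CPM in Mki67-positive cells, against 116 and 98.3 CPM in Mki67-zero cells. The log2 fold changes were 5.20 ± 0.09 (SE, adjusted p = 2.8e-21, edgeR quasi-likelihood test) for Hist1h2ae and 2.73 ± 0.06 (adjusted p = 1.88e-19) for Hist1h1e. Hist1h1b had 739 and 585 CPM in Mki67-positive cells, against 37.2 and 23.1 CPM in Mki67-zero cells, a log2 fold change of 4.52 ± 0.08 (adjusted p = 3.99e-21). Hist1h1d, with 356 and 358 against 22.5 and 18.3 CPM, rose by 4.17, and Hist1h2ab, with 284 and 232 against 27.5 and 17.0 CPM, by 3.59 on the log2 scale. Hist1h1c, a linker histone gene with 261 and 257 against 59.3 and 56.2 CPM, rose by 2.20. None of these genes overlapped between the classes.

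The filter on low counts passed 56 members, and all 56 were higher in Mki67-positive cells, where 23.5% of the 12958 genes tested were higher. Their median log2 fold change was 2.92, beside −0.03 over all genes tested, and in 55 of the 56 the values of Mki67-positive cells lay above those of Mki67-zero cells in both mice without overlap, as did those of 29.1% of all genes tested. The family medians were 4.17 for H1, 4.10 for H2A, 3.01 for H3, 2.93 for H2B and 2.22 for H4. The largest rises were those of Hist1h2ap (17.5 and 18.1 against 0.353 and 0.318 CPM, log2 fold change 5.75 ± 0.23), Hist1h2bk (46.5 and 39.0 against 1.20 and 0.664 CPM, 5.57 ± 0.16) and Hist1h2ao (17.3 and 18.5 against 0.530 and 0.289 CPM, 5.50 ± 0.24), all 3 among the members with near-identical copies. At the other end, Hist3h2ba rose by 0.62, Hist2h2be by 0.65, Hist4h4 by 1.12 and Hist1h4c by 1.13. Mki67-positive cells were deeper, with median UMIs of 8836 and 8693, against 5340 and 5986 in Mki67-zero cells. With every cell thinned to 2000 UMIs, the mean log2 ratio of the summed level was 2.64, against 3.23 with all UMIs.

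**Figure D2:**
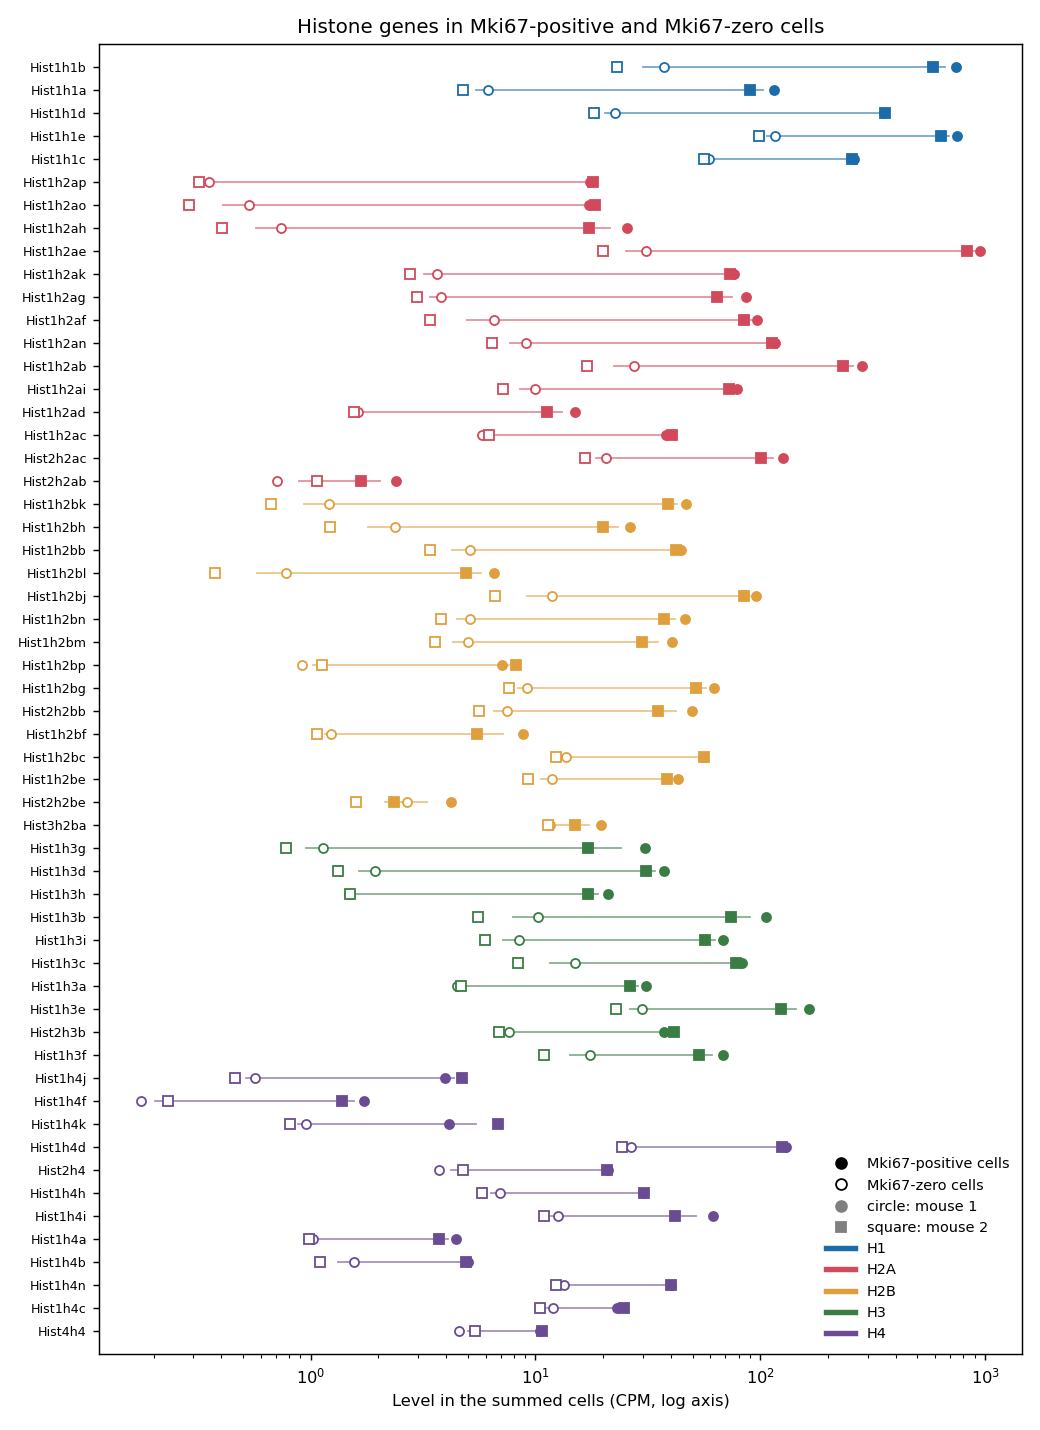
Level (CPM, log axis) of each of the 56 tested members, filled symbols for Mki67-positive and open symbols for Mki67-zero cells, circles for mouse 1 and squares for mouse 2, coloured by family. Hist1h2ae reaches 954 and 835 CPM in Mki67-positive cells, and Hist3h2ba, Hist2h2be, Hist4h4 and Hist1h4c have the narrowest gaps.

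The make-up of the histone transcripts also differed between the classes. Hist1h2ae made up 16.7% and 17.0% of histone UMIs in Mki67-positive cells, against 4.86% and 3.95% in Mki67-zero cells, and Hist1h1b 12.98% and 11.9%, against 5.85% and 4.59%. Hist1h1e had a smaller share in Mki67-positive cells, 13.1% and 12.98%, against 18.3% and 19.5%, as did Hist1h1c with 4.59% and 5.22%, against 9.34% and 11.2%. Hist3h2ba had 0.343% and 0.306%, against 1.82% and 2.26%, and Hist1h4c 0.405% and 0.504%, against 1.88% and 2.08%. In each of these the direction was the same in both mice. Members whose annotated transcript runs 100 or more bases past the stem-loop held 54.7% and 57.0% of histone UMIs over all cells. The 18 of them that were tested had a median log2 fold change with Mki67 of 2.35, beside 3.06 for the 19 tested whose transcript ends sooner and 3.19 for the 19 tested with no stem-loop match. These 3 medians are a description of the annotation groups, whose members differ in family and level.

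The genes around the histones moved as follows. Slbp had 325 and 266 CPM in Mki67-positive cells, against 105 and 91.2 CPM in Mki67-zero cells (log2 fold change 1.62 ± 0.06, adjusted p = 8.94e-16), and Npat, the coactivator bound to histone loci, 26.9 and 26.2, against 17.8 and 18.7 CPM (0.58 ± 0.09, adjusted p = 3.58e-05). Of 19 genes of histone transcription and mRNA processing, 12 were higher and none lower, E2f1, a transcription factor of the entry into S phase, by 2.74. Of 21 histone chaperones, 17 were higher, among them Asf1b, a carrier of H3 and H4, by 4.06, and Chaf1a, a subunit of the assembly factor CAF-1, by 2.71. Of 10 tested replication-independent variants, 8 were higher: H2afz had 2448 and 1993, against 748 and 682 CPM (1.66), and Cenpa and H2afx rose by 2.44 and 2.55. H3f3b, which encodes H3.3, had 1551 and 1742, against 1389 and 1660.5 CPM, and its log2 fold change of 0.15 did not pass the test (adjusted p = 0.0573). All 28 genes of a replication list and all 26 of a mitosis list were higher.

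To place the histones within the cycle, Mki67-positive cells were split by whether the replication list (such as Pcna, the Mcm helicase genes and Rrm2) or the mitosis list (such as Ccnb1, Plk1 and Ube2c) had more UMIs in the cell, and the list genes were left out of the test. The replication-leaning class had 677 and 723 cells and the mitosis-leaning class 265 and 181; 29 and 32 ties were left out, and 92 and 98 cells lay within 1 UMI of equality. The classes differed in depth, with median UMIs of 7886 and 8141 in replication-leaning and 11856 and 13620 in mitosis-leaning cells. Mitosis-leaning cells were not low in replication transcripts: their median replication-list UMIs were 26 and 21, against 10 and 7 in replication-leaning cells, beside 105 and 78 mitosis-list UMIs, against 1 and 1.

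Histone transcripts were lower in replication-leaning than in mitosis-leaning cells. Their summed level was 4091 and 3491 CPM in replication-leaning cells, against 9187 and 9293 CPM in mitosis-leaning cells, ratios of 0.445 and 0.376. Of 56 members tested, 50 were lower and 0 higher in replication-leaning cells, where 10.1% of the 10832 genes tested were lower, and the median log2 fold change was −1.36, beside 0.01 over all genes. Hist1h2ae had 634 and 557 CPM in replication-leaning cells, against 1648 and 1683 CPM in mitosis-leaning cells (−1.50 ± 0.07, adjusted p = 3.66e-17, edgeR). Hist1h1e had 543 and 442, against 1195 and 1239 CPM (−1.33 ± 0.08), and Hist1h1b 604 and 496, against 1049 and 876 CPM (−0.82 ± 0.07). The largest falls were those of the H2B genes Hist1h2bp (−1.94) and Hist1h2bb (−1.93) and of the H3 gene Hist1h3c (−1.71). Summed markers of erythroid cells were 10.5 and 10.05 CPM in replication-leaning cells, against 3.84 and 314 CPM in mitosis-leaning cells; their part in the result was not tested. The 6 members that did not pass were Hist1h1a, Hist1h3a, Hist1h4a, Hist1h4f, Hist2h2ab and Hist2h2be; Hist1h1a, a linker histone gene, had 120 and 85.0 CPM in replication-leaning cells, against 109 and 113 CPM in mitosis-leaning cells.

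The split depends on how many list UMIs a cell must have. Among cells with at least 20 list UMIs, an alternative added after the data were seen, 41 of 54 members tested were lower and 2 higher in replication-leaning cells, where 15.3% of all genes tested were lower and 16.6% higher. The mean log2 ratio of the summed level was −0.65 there, against −1.29 with all Mki67-positive cells. The 2 that were higher were Hist1h1a (0.60 ± 0.09, adjusted p = 2.43e-10, edgeR) and Hist1h3a (0.41 ± 0.15, adjusted p = 0.0204). Both are on chromosome 13, and neither passed the test with all Mki67-positive cells.

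Slbp went the other way from most histone genes, with 373 and 301 CPM in replication-leaning cells, against 241 and 183 CPM in mitosis-leaning cells (0.66 ± 0.08, adjusted p = 1.92e-07, edgeR). E2f1 had 51.4 and 46.8, against 9.17 and 5.03 CPM (2.74 ± 0.20). Npat had 27.7 and 26.3, against 25.7 and 25.9 CPM (0.05, adjusted p = 0.86). Of the 19 transcription and processing genes 4 were higher and 3 lower, and of the 21 chaperones 3 and 3. Of all genes tested, 10.1% were lower, and the share that was higher is not given here. These counts are thus not read as a result about the lists. Among the chaperones, Hjurp, the chaperone of the centromeric variant Cenpa, fell by 1.43 and Anp32e, a chaperone of H2A.Z, by 1.17. Of 10 variants, 6 were lower, Cenpa by 2.83, H2afx by 2.46 and H2afz by 0.82.

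A grid of both lists separates cells by the 2 amounts at once. Its bins, in list UMIs per 10000 UMIs of the cell, were cut at 20 and 80 for the replication list and at 3, 16 and 32 for the mitosis list; they were chosen after values were seen, and the grid carries no test. In cells with 80 or more replication UMIs per 10000, the summed histone level from the lowest to the highest mitosis bin was 779, 2652, 8622 and 13995 CPM in mouse 1 and 831, 2455, 8895 and 15869 CPM in mouse 2. The lowest of these bins held 6 and 7 cells. In cells with under 20 replication UMIs per 10000, the levels over the same mitosis bins were 603, 712, 999.9 and 4093 CPM in mouse 1 and 494, 595, 1093 and 5708 CPM in mouse 2. Histone levels thus climbed with the mitosis list within each replication bin, and at the highest mitosis bin they were lowest where replication transcripts were few.

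**Figure D3:**
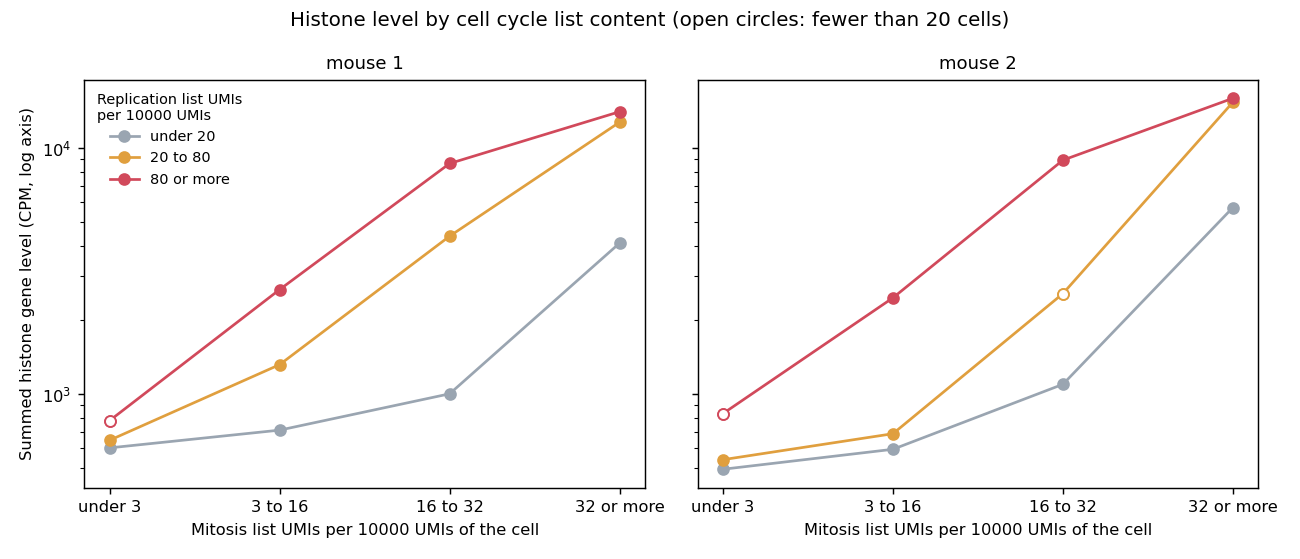
Summed histone level (CPM, log axis) against mitosis-list UMIs per 10000 UMIs, with a line for each bin of replication-list UMIs and a panel for each mouse; open circles mark bins of under 20 cells. Lines with more replication UMIs reach 13995 CPM in mouse 1 and 15869 CPM in mouse 2, and the line with under 20 per 10000 reaches 4093 and 5708 CPM.

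A small number of cells held most of the histone transcripts. The 300 and 317 cells with the most histone UMIs, the top 5%, held 71.3% of them in each mouse, and 11.9% and 11.5% of all UMIs. The top 1% held 29.1% and 42.6%, and every one of these 60 and 63 cells was Mki67-positive. Of the top 5%, 99.3% and 81.7% were Mki67-positive. The highest single cells had 968 and 989 histone UMIs, beside medians of 8 and 5 per Mki67-positive cell and 3 and 3 per Mki67-zero cell.

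Thinned to 2000 UMIs per cell, which left out 7 and 2 Mki67-positive cells and 150 and 69 Mki67-zero cells, 27.8% and 17.5% of Mki67-positive cells had 10 or more histone UMIs. The 95% intervals for counting error alone (exact, Clopper-Pearson) were 24.99% to 30.7% and 15.1% to 20.04%. Among Mki67-zero cells, 3 of 4872 and 0 of 5327 reached 10, and the interval of the 0 allows a share of up to 0.0692%. Cells with any histone UMI after thinning were 81.4% and 71.7% of Mki67-positive and 70.0% and 60.1% of Mki67-zero cells. In cells without any UMI of Mki67 or of the cycle lists, which had median depths of 3077 and 3503 UMIs, the share was 75.5% and 67.7%. A single histone UMI thus did not set cells with cycle transcripts apart from cells with none, and free RNA was not measured. Unthinned, 97.8% and 94.8% of Mki67-positive and 92.99% and 91.05% of Mki67-zero cells had one.

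TRBV26 (Vβ3) and TRBV23 (Vβ20) cells were set against cells of all other V genes. Histone transcripts were lower in TRBV26 cells. The summed level was 1653 and 1153 CPM in TRBV26 cells, 2004 and 1148 CPM in TRBV23 cells and 2210 and 1753 CPM in other cells. The TRBV26 values lay below those of other cells in each mouse (ratios 0.748 and 0.658), whereas TRBV23 cells were 0.907 and 0.655 times other cells. Mki67 was detected in 12.6% and 11.9% of TRBV26 cells, 15.0% and 13.1% of TRBV23 cells and 19.2% and 16.7% of other cells. Foxp3 was detected in 8.49% and 12.96%, 8.65% and 12%, and 22.3% and 22.1% of cells in the same order; among Foxp3-zero cells alone, an alternative added after the data were seen, 26 members were lower in TRBV26 and 9 in TRBV23 cells than in other cells, where 12.1% and 7.85% of all genes tested were lower, beside the 28 and 10 members given below for all cells. Summed markers of natural killer cells were 6.95 and 11.4 CPM in TRBV26, 6.41 and 8.90 CPM in TRBV23 and 17.2 and 13.5 CPM in other cells. Those of erythroid cells were 5.29 and 66.3 CPM in TRBV26, 3.52 and 331 CPM in TRBV23 and 8.63 and 9.93 CPM in other cells. The part of these markers in the result was not tested.

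Hist1h2ae had 218 and 141 CPM in TRBV26 cells, against 318 and 247 CPM in other cells (log2 fold change −0.68 ± 0.08, adjusted p = 1.73e-04, edgeR). Hist1h1e had 231 and 168, against 320.0 and 258 CPM (−0.55 ± 0.08), Hist1h1b 173 and 107, against 255 and 179 CPM (−0.65 ± 0.08), and Hist1h1d 89.4 and 68.6, against 130.3 and 115 CPM (−0.65 ± 0.09). Hist1h1c (105 and 81.1 against 119 and 116 CPM, −0.35) and Hist1h2ab (84.1 and 52.8 against 107 and 76.6 CPM, −0.44) fell less. Each of these genes was lower in both mice, and the mouse 1 value of TRBV26 cells lay near the mouse 2 value of other cells for several, as the levels differed between mice. Hist1h2bk (8.69 and 6.56 against 16.2 and 11.6 CPM, −0.87) and Hist1h2ap (3.87 and 3.02 against 6.00 and 5.46 CPM, −0.74) were among the largest falls.

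Of 56 members, 28 were lower and 0 higher in TRBV26 than in other cells, where 10.6% of the 12631 genes tested were lower, and the median log2 fold change was −0.43, beside 0.00 over all genes. By family, 5 of 5 H1, 9 of 14 H2A, 7 of 15 H2B, 4 of 10 H3 and 3 of 12 H4 members fell. Of the cycle genes, 25 of 28 on the replication list and 24 of 26 on the mitosis list were lower, among them Clspn, a replication checkpoint protein (−0.79), and Top2a, a topoisomerase (−0.69). Slbp fell by 0.31 and H2afz by 0.33, Npat (−0.04) and H3f3b (−0.03) did not pass, and H1f0, a linker histone made outside S phase, was higher (90.8 and 136 against 73.5 and 92.9 CPM, 0.44). The 28 calls rest on the pairing of classes within mice. Without the mouse as a block, 0 members passed, where 2.1% of all genes were lower. With clonotype size as a further term, 0 passed, where 3.16% of all genes were lower. At an unadjusted p under 0.05, 10 and 8 members were lower in these fits, in that order. The shares of all genes, here and below, are at an adjusted p under 0.05, and none is given at an unadjusted p.

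In TRBV23 cells, 10 of 56 members were lower than in other cells and 0 higher, where 7.05% of the genes tested were lower. Hist1h2ap (3.84 and 2.07 against 6.00 and 5.46 CPM, −0.92), Hist1h3i, an H3 gene (20.2 and 10.1 against 28.3 and 21.1 CPM, −0.69), Hist1h4i (−0.59) and Hist1h1d (−0.59) fell most of those named. The comparison shares its other cells with that of TRBV26. Without the 5% of cells with the most UMIs, 1 member was lower (Hist1h4i, −0.55) and 3 were higher (Hist1h1a 0.49, Hist1h2ae 0.34 and Hist1h1b 0.28), where 7.15% of all genes were lower and 6.91% higher. Without the mouse block 0 passed, where 1.63% of all genes were lower, and 3 members were lower at an unadjusted p under 0.05. In a direct comparison of TRBV26 with TRBV23 cells, 0 of 56 members passed by edgeR, where 0.0475% of all genes passed in either direction. By DESeq2, 0 passed as well. At an unadjusted p under 0.05 by edgeR, 9 members were lower and 2 higher, a threshold unlike that of the share.

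At the same Mki67 status most of these differences did not pass. Among Mki67-positive cells 0 of 56 members passed by edgeR, where 0.749% of the genes tested were lower. At an unadjusted p under 0.05, 7 members were lower. The summed histone level there was 5683 and 4135 CPM in TRBV26 cells, against 5591 and 5335 CPM in other cells. The mice thus differed in direction. Among Mki67-zero cells it was 589 and 466 CPM in TRBV26 cells, against 680.4 and 531 CPM in other cells, and 3 members were lower, where 7.51% of genes were: Hist1h3i (6.29 and 4.99 against 10.3 and 6.86 CPM, −0.59), Hist1h1d (17.1 and 15.4 against 27.2 and 20.9 CPM, −0.55) and Hist1h1e (108 and 81.4 against 124 and 113 CPM, −0.34). The difference between the strata itself passed for 0 members by edgeR, where 1.26% of genes passed in either direction; 4 had a positive difference, Mki67-positive minus Mki67-zero, at an unadjusted p under 0.05. For TRBV23, 0 members passed among Mki67-positive cells, where 0.281% of genes were lower, and 7 were lower at an unadjusted p under 0.05. Among Mki67-zero cells 1 passed, where 5.4% of genes were lower: Hist1h1e (109 and 73.7 against 124 and 113 CPM, −0.38).

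Cells of larger clonotypes, which share a TRB sequence, carried more histone message than cells alone in their clonotype. The summed level was 1664 and 1226 CPM in clonotypes of 1 cell, 2149 and 1929 CPM in those of 2 to 9 cells and 2280 and 1467 CPM in those of 10 or more. Both larger classes lay above single cells in each mouse, and their order differed between the mice. Mki67 was detected in 12.2% and 13.3%, 18.6% and 18.3%, and 19.3% and 13.1% of cells in the same order, and Foxp3 in 16.4% and 19.8%, 20.1% and 28.1%, and 7.18% and 5.19%.

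In clonotypes of 2 to 9 cells, Hist1h2ae had 320.3 and 295 CPM, against 210.1 and 157 CPM in single cells (log2 fold change 0.75 ± 0.14, adjusted p = 0.026, edgeR). Hist1h1e had 308 and 266, against 240.0 and 177 CPM (0.47 ± 0.06), and Hist1h1b 251 and 194, against 174 and 119.6 CPM (0.60 ± 0.09). Hist1h3g, an H3 gene (11.8 and 6.51 against 5.38 and 3.55 CPM, 1.00), and Hist1h1a (42.9 and 33.9 against 26.2 and 18.6 CPM, 0.77) rose most. In all, 12 of 55 members tested were higher and 0 lower, where 3.09% of the 12701 genes tested were higher, with a median of 0.44, beside 0.00 over all genes. Without the mouse block 0 passed, where 0.0709% of all genes were higher, and 15 members were higher at an unadjusted p under 0.05. In cells without TRBV26 and TRBV23, 1 member was higher, Hist1h2bc (0.57), where 2.78% of all genes were.

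In clonotypes of 10 or more cells, Hist1h1e had 324 and 241 CPM, against the same single cells (0.47 ± 0.06, adjusted p = 0.00124, edgeR), Hist1h1b 269 and 150.5 CPM (0.52 ± 0.10) and Hist1h1d 145 and 94.99, against 88.9 and 75.7 CPM (0.55 ± 0.14). Hist1h2ae, with 325 and 177 CPM, did not pass (0.44 ± 0.14, adjusted p = 0.0556). Hist1h3d rose by 0.71, Hist1h4i by 0.68 and Hist1h2bc by 0.62. Again 12 of 55 members were higher and 0 lower, but here 13.5% of all genes tested were higher; the members' median was 0.35, beside 0.00 over all genes. In cells without TRBV26 and TRBV23 no member was higher and 2 were lower (Hist1h2ag −0.75 and Hist2h3b −0.49), where 12.8% of all genes were higher and 14.3% lower, and the mean log2 ratio of the summed level was −0.16, against 0.36 with all cells. Of the replication list, 23 of 28 genes were higher, led by Rpa2, a single-strand binding protein (1.38), and Dut, a dUTPase (0.93), and of the mitosis list 5 of 26; H1f0 fell by 0.98. Summed markers of natural killer cells were 21.7 and 21.9 CPM in these clonotypes, against 8.24 and 9.13 CPM in single cells, and those of myeloid cells 43.4 and 56.3, against 22.9 and 15.7 CPM; their part in the result was not tested.

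Within Mki67 strata, the larger clonotypes differed from single cells in few members. Among Mki67-positive cells the summed level was 6318 and 4215 CPM in clonotypes of 1 cell, 5414 and 5659 CPM in those of 2 to 9 and 5520.4 and 4873 CPM in those of 10 or more, an order that differed between the mice. Among Mki67-zero cells it was 577 and 457 CPM in clonotypes of 1 cell, 659 and 500.002 CPM in those of 2 to 9 and 707 and 583 CPM in those of 10 or more, the same order in both mice. The mean log2 ratio of clonotypes of 10 or more to 1 cell was 0.32 in Mki67-zero cells, against 0.36 in all cells. Among Mki67-positive cells of clonotypes of 10 or more, 1 member was higher, where 4.96% of genes were: Hist1h4i (74.4 and 49.0 against 50.2 and 35.9 CPM, 0.57). Among Mki67-zero cells 3 were higher, where 10.5% of genes were: Hist1h1e (127 and 125 against 99.98 and 83.2 CPM, 0.47), Hist1h1b (45.0 and 29.2 against 31.96 and 19.2 CPM, 0.54) and Hist1h2bc (15.9 and 13.9 against 11.7 and 9.25 CPM, 0.50). For clonotypes of 2 to 9 cells 0 members passed in either stratum by edgeR, where 0.162% and 2.02% of genes were higher. At an unadjusted p under 0.05, 3 and 2 members were higher. The difference between strata passed for 0 members in both comparisons by edgeR, where 0.325% and 0.0256% of genes passed in either direction, with 6 members below 0 for the larger and none for the smaller clonotypes at an unadjusted p under 0.05.

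Foxp3 is the transcription factor of regulatory T cells, and cells with a Foxp3 UMI carried more histone message than cells with none. The summed level was 2750 and 1986 CPM in Foxp3-positive cells, against 1824 and 1383 CPM in Foxp3-zero cells, 1.51- and 1.44-fold. Each mouse had the higher value in its Foxp3-positive cells. Mki67 was detected in 27.7% and 22.7% of Foxp3-positive cells, against 14.1% and 13.04% of Foxp3-zero cells. Foxp3-positive cells were also deeper, with median UMIs of 6338 and 6597.5, against 5522 and 6166 in Foxp3-zero cells. Fewer members passed in thinned cells, as given with the alternatives below.

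Hist1h2ae had 448 and 290.4 CPM in Foxp3-positive cells, against 241 and 183 CPM in Foxp3-zero cells (log2 fold change 0.79 ± 0.05, adjusted p = 3.41e-46, edgeR). Hist1h1e had 395 and 291, against 261 and 203 CPM (0.56 ± 0.05), Hist1h1b 310.1 and 188, against 207 and 141 CPM (0.51 ± 0.06), and Hist1h1d 168 and 139, against 99.5 and 84.1 CPM (0.75 ± 0.06). Hist1h1c had 147 and 132, against 106 and 94.0 CPM (0.49), and Hist1h2ab 134 and 87.9, against 87.8 and 60.2 CPM (0.58). All 6 were higher in both mice, though for Hist1h1b and Hist1h2ab the mouse 2 value of Foxp3-positive cells was below or level with the mouse 1 value of Foxp3-zero cells. The largest rises were those of Hist1h2bk (27.6 and 15.0 against 10.2 and 7.94 CPM, 1.20), Hist1h2ap (8.68 and 7.76 against 4.12 and 3.48 CPM, 1.12) and the H3 gene Hist1h3h (10.1 and 9.62 against 5.95 and 3.87 CPM, 1.04).

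Of 56 members, 43 were higher and 0 lower in Foxp3-positive cells, where 22.3% of the 13072 genes tested were higher, with a median of 0.50, beside −0.01 over all genes. All 5 H1 and 10 H3 members tested rose, as did 12 of 14 H2A, 10 of 15 H2B and 6 of 12 H4. The mitosis list rose in 26 of 26 genes and the replication list in 20 of 28, with 1 lower. Of the variants, H1f0 (144 and 194 against 68.0 and 87.1 CPM, 1.13) and Cenpa (0.97) rose most by p; Slbp rose by 0.20 and H2afz by 0.31, and Npat (−0.01) and H3f3b (0.10, adjusted p = 0.117) did not pass. In this fit the spread was fully pooled across genes, so a gene's own variation between the mice had no weight, and without the mouse block 17 members were higher, where 12.6% of all genes were. Summed markers of B cells were 10.8 and 19.0 CPM in Foxp3-positive cells, against 1.14 and 1.91 CPM in Foxp3-zero cells, and those of natural killer cells 0.420 and 1.20, against 14.7 and 15.2 CPM, and those of erythroid cells 4.90 and 164, against 7.12 and 35.2 CPM; their part in the result was not tested.

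Among Mki67-positive cells the summed histone level was 5724 and 4732 CPM in Foxp3-positive cells, against 5684 and 4996 CPM in Foxp3-zero cells, and the values overlapped. There 0 members were higher and 3 lower, where 10.3% of genes were lower: Hist3h2ba (13.9 and 10.6 against 21.7 and 17.0 CPM, −0.67), Hist1h1a (89.5 and 81.0 against 124 and 94.5 CPM, −0.36) and Hist2h2ac (116 and 84.8 against 130.3 and 108 CPM, −0.26). Among Mki67-zero cells it was 659.6 and 561 CPM, against 631 and 491 CPM. There 5 members were higher, where 20.1% of genes were: Hist1h1e (145 and 129 against 111 and 91.8 CPM, 0.49 ± 0.07), Hist1h1c (67.2 and 68.2 against 57.9 and 53.7 CPM, 0.33), Hist1h1d (28.8 and 25.7 against 21.4 and 16.7 CPM, 0.57), Hist1h4i (0.64) and Hist1h2ag (1.13). The H3 gene Hist1h3e was lower (−0.33). Of the 5 higher members, 3 were linker histone genes. In none of these comparisons within a stratum, for V class, clonotype size or Foxp3, was the share of members called above the share of all genes tested.

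The difference between the strata passed for 1 of 56 members, Hist1h1e, a share near the 1.49% of genes that passed in the same direction. Hist1h1e had 749 and 602 CPM in Foxp3-positive and 749 and 654 CPM in Foxp3-zero cells among Mki67-positive cells (−0.07 ± 0.06), and the difference of the log2 fold changes, Mki67-positive minus Mki67-zero, was −0.56 ± 0.09 (adjusted p = 0.00437, edgeR). The fit without the mouse block gave −0.54 with an adjusted p of 0.445.

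**Figure D4:**
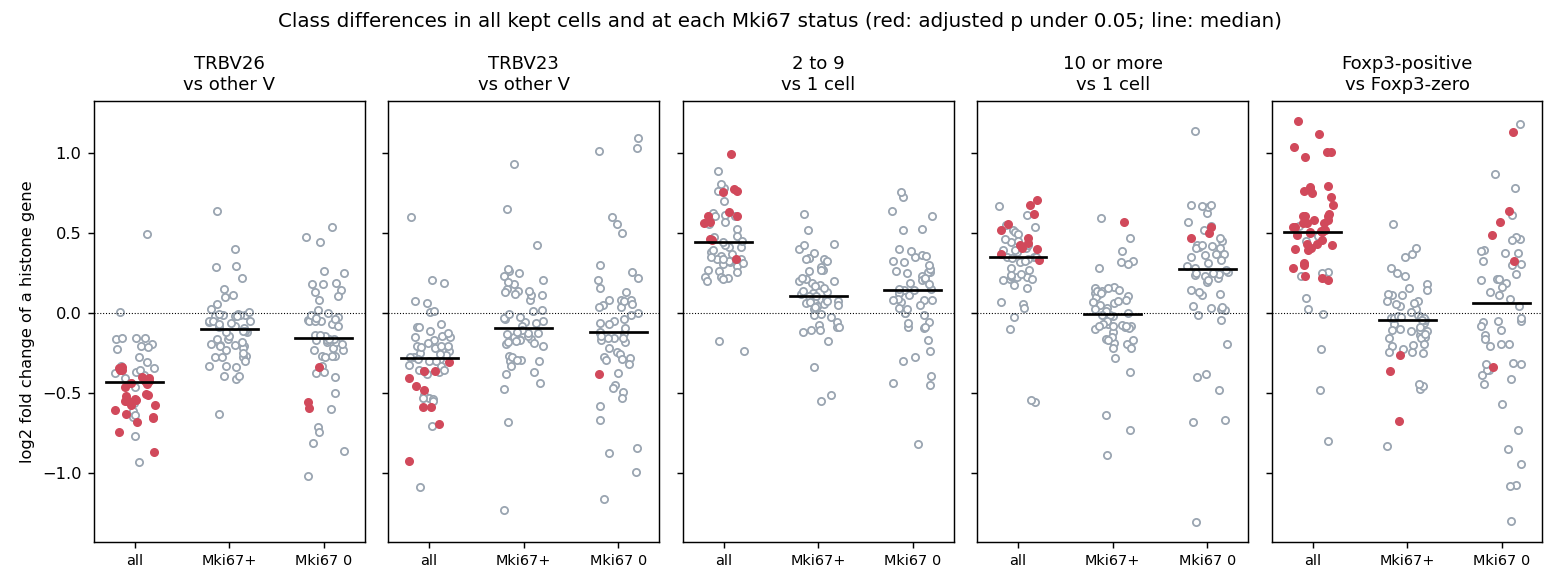
Log2 fold changes of the tested members in 5 comparisons, each in all cells, in Mki67-positive cells and in Mki67-zero cells; a point is 1 member, red points have an adjusted p under 0.05 and the black line is the median. For TRBV26 against other cells the median is −0.43 in all cells, −0.10 in Mki67-positive and −0.15 in Mki67-zero cells, and for Foxp3 it is 0.50, −0.04 and 0.07.

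Over 21 sums of mouse, V class, clonotype expansion and Mki67 status, the genes outside the family whose level most resembled the summed histone level were Cdca3, Esco2, Kif11, Ube2c and Cdca8. Pearson's r of log2(CPM + 1) lay between 0.994 and 0.996 for these 5. They are known for mitotic entry, sister chromatid cohesion in S phase, spindle formation, cyclin destruction and the chromosomal passenger complex, in that order. The sums share libraries and differ chiefly in Mki67, so the values describe these sums and carry no test.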

How the data were processed

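Single-cell expression and T cell receptor libraries of 2 hosts were used, both made with the 10x 5′ v2 kit per the labels' protocols. Per the submitters' processing notes, Cell Ranger 7.0.1 was used and the builds mm10 and GRCm38 are named; the annotation version and the treatment of reads matching several genes are not given in the sources used here. The deposited matrices hold counts (UMIs per gene and barcode, not normalized), and the receptor tables, also as deposited, give counts of reads and UMIs for each contig.

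Kept cells had at least 500 genes, at most 10% mitochondrial UMIs and exactly 1 productive TRB contig; no doublet caller was run. A clonotype was 1 combination of TRBV, TRBJ and TRB CDR3 nucleotide sequence within a mouse. UMIs were summed per mouse and class and tested with edgeR 4.0.16 (R 4.3.3; TMM, filterByExpr and the quasi-likelihood F test), with the mouse as a block because the classes come from the same animals. P-values were adjusted over every gene tested (Benjamini-Hochberg) and called under 0.05. The SE printed after ± is the size of the log2 fold change divided by the square root of its F statistic. It is not the spread between the mice. Receptor segments and the gene that defined a split were left out. Prior degrees of freedom were 9.52 for V classes, 5.73 for clonotype size, 19.6 for Mki67, 31.0 for the replication and mitosis lists and infinite for Foxp3, beside 1 or 2 residual ones. In these fits p-values thus measure how class differences varied between 2 hosts, mostly through a spread pooled over genes. The fits within Mki67 strata and with the clonotype size term take several sums from each mouse. They treat these sums as separate values beyond a common shift per mouse, so their p-values do not measure the variation between hosts alone. The fitting steps were also run on simulated counts with known changes. Those counts had 1 common dispersion for all genes and no difference between mice beyond depth. That run therefore cannot judge the mouse block or spread that differs between genes.

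Members, lists and tests were chosen with earlier results of these data known. In each comparison the 6 members with the highest CPM, the 3 largest changes each way past the threshold, 2 genes by p of each further list, and Slbp, Npat, H2afz and H3f3b were named by rule; other members are named where a count is small. Alternatives were RLE factors, DESeq2 1.42.0, no filter on low counts, no mouse block, 1 mouse left out, thinning to 2000 UMIs, leaving out the 5% of cells with the most UMIs, 1 cell per clonotype, stricter classes and subsets of V genes. Stem-loops and coordinates come from GENCODE M21, promoters from RefSeq.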

Additional observations from a re-analysis of the deposited data

Results flagged for a closer look

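The log2 fold change of Hist1h1e, a linker histone gene, between Foxp3-positive and Foxp3-zero cells differed between Mki67-positive and Mki67-zero cells in a test of the difference itself, at −0.56 ± 0.09 on the log2 scale (adjusted p = 0.00437, edgeR). Hist1h1e had 749 and 602 CPM in Foxp3-positive Mki67-positive cells, against 749 and 654 CPM in Foxp3-zero ones, and 145 and 129 CPM in Foxp3-positive Mki67-zero cells, against 111 and 91.8 CPM in Foxp3-zero ones. Hist1h1e was the only one of 56 members past the threshold in this fit, where 1.49% of the 11786 genes tested passed in the same direction. The share of members called was thus near that of all genes, and a count of this size does not set the members apart. Without the mouse block the adjusted p of Hist1h1e was 0.445 (edgeR). Both fits take several sums from each mouse as separate values, so their p-values do not measure the variation between hosts alone. The next were Hist1h2ag (−0.90, adjusted p = 0.0593) and Hist1h1d (−0.54, adjusted p = 0.0753).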

How the results depend on the processing

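RLE factors changed no call of the named members or any count by over 1.5 times. The counts of members below stand without the share of all genes called in the same fit, except where given above. A count that moved therefore cannot be told apart from a change in how many genes the fit calls. Of 99 single-gene results, 44 no longer passed without the mouse block and 55 kept their direction and their side of the threshold. The counts of members lower in TRBV26 than in other cells (28) were 12 with DESeq2, 0 without the mouse block, 13 in thinned cells, 14 without the 5% of cells with the most UMIs and 0 with clonotype size as a term; the log2 ratio of summed levels (−0.51) was −0.33 without those cells and −0.92 with 1 cell per clonotype. For TRBV23 against other cells (10 lower, −0.38) the counts were 4 with DESeq2, 22 without the filter, 0 without the mouse block, 3 in thinned cells, 1 without the 5% of cells, 21 with 1 cell per clonotype and 0 with the size term, and the ratio without the 5% of cells was 0.034. For TRBV26 against TRBV23 (0 lower) they were 4 without the filter and 4 without the 5% of cells; the ratio (−0.14) was −0.36 without them and −0.28 and 0.0065 in the single mice. For 10 or more cells against 1 (12 higher, 0.36) the counts were 4 with DESeq2, 26 without the filter, 1 without the mouse block, 7 thinned, 19 without the 5% of cells and 0 without TRBV26 and TRBV23 cells, where the ratio was −0.16. For 2 to 9 cells against 1 (12 higher, 0.51) they were 4 with DESeq2, 30 without the filter, 0 without the mouse block, 7 thinned, 7 without the 5% of cells (ratio 0.31), 37 for 2 or more against 1 cell and 1 without TRBV26 and TRBV23 cells. For Foxp3 (43 higher, 0.56) they were 23 with DESeq2, 17 without the mouse block, 14 thinned, 20 without the 5% of cells and 28 without TRBV26 and TRBV23 cells; the ratio was 0.35 without the 5% of cells, 0.74 with 1 cell per clonotype, 0.62 at 2 or more Foxp3 UMIs and 0.39 without TRBV26 and TRBV23 cells. The Mki67 ratio (3.23) was 2.64 thinned, 2.17 without the 5% of cells and 3.77 at 2 or more Mki67 UMIs. The ratio of replication- to mitosis-leaning cells (−1.29) was −1.65 thinned, −1.49 without the 5% of cells, −0.65 at 20 list UMIs and −1.74 where 1 list had at least 2 times the UMIs of the other.

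Within Mki67 strata, the fit without the mouse block called 0 members for TRBV26 and TRBV23 in Mki67-zero cells, for 10 or more cells in both strata, for Foxp3 in Mki67-positive cells and for the Foxp3 difference between strata. With Mki67 positive at 2 UMIs, Foxp3 gave 7 lower members among positive cells (ratio −0.18) and 3 for the difference, the ratio of TRBV23 to other positive cells was 0.12 (Hist1h1e 0.16) and that of TRBV26 to TRBV23 −0.25. In Mki67-positive cells the single mice gave opposite signs, with log2 ratios from −0.37 to 0.023 for TRBV26, −0.41 to 0.13 for TRBV23, −0.11 to 0.046 for TRBV26 against TRBV23, −0.19 to 0.21 for 10 or more cells, −0.22 to 0.43 for 2 to 9 cells and −0.078 to 0.010 for Foxp3.

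Single genes that changed sign were as follows. For TRBV23 against other cells without the 5% of cells, Hist1h2ae was 0.34, Hist1h1b 0.28, Hist1h1c 0.014 and Hist1h2ab 0.067. For TRBV26 against TRBV23, thinned Hist1h1c was 0.015, Hist1h1d 0.024 and Hist1h2ab −0.065; Hist1h2ab was −0.17 without the 5% of cells and −0.20 with 1 cell per clonotype; with the size term Hist1h1e was 0.24, Hist1h2ae 0.28, Hist1h1b 0.089, Hist1h1c 0.18 and Hist1h1d 0.31. For 10 or more cells, thinned Hist1h3d was −0.14, and without TRBV26 and TRBV23 cells Hist1h1e was −0.015, Hist1h2ae −0.26, Hist1h1b −0.060, Hist1h1c −0.21, Hist1h1d −0.21 and Hist1h2ab −0.40. Thinning and leaving out cells also lower the number of UMIs tested, and the causes of these shifts were not tested. With 1 mouse left out no residual degrees of freedom remained, so those are values with no test, and members with near-identical copies are limited by how reads were assigned.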
